A study of Mus musculus with 18 samples.

Results

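The genes described are 10 transcription factors that specify and maintain the epithelium of the lung: Nkx2-1, Foxa1, Foxa2, Gata6, Sox2, Elf3, Ehf, Klf5, Etv5 and Grhl2. They were chosen by name, and all 10 were found among the 19938 genes that the arrays measured with a probe set of a single gene symbol. Each was read from 1 probe set. Etv5 had 2 probe sets, of which the one with the higher mean over all arrays was used. The samples were terminal bronchiolar epithelial cells from mouse lung, profiled on 18 arrays in 6 groups of 3. Cebpa d/d mice and control mice were each sampled at 0, 3 and 72 hr after naphthalene, a chemical that injures club cells, the secretory cells of the small airway. The strain is given as a mix of FVB/N with C57BL/6 for every mouse, and all groups carry the label of naphthalene injury, those at 0 hr included. The promoter that drives the deletion, the part of Cebpa that it removes, the age of the mice and the alleles of the controls are not given in the sources used here.

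These factors act in layers. NKX2-1 (also called TTF-1) marks the lung lineage and switches on surfactant and secretoglobin genes, and FOXA1, FOXA2 and GATA6 open and activate the same genes with it. SOX2 sets the identity of the conducting airway. The ETS factors ELF3 and EHF and the Kruppel-like factor KLF5 act in epithelial differentiation and repair, ETV5 is a target and effector of FGF and ERK signalling that maintains alveolar type 2 cells, and GRHL2 holds up the genes of epithelial junctions. C/EBP alpha, the product of Cebpa, works beside them in the mature lung epithelium.

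Of the 10 factors, Klf5 and Etv5 were the ones that changed with time in the test across all genes, and 0 passed between the genotypes at a single time or in the mean over the times with all 18 arrays. Klf5 was high at 3 hr and low at 72 hr in both genotypes. Etv5 was higher at 72 hr than at 3 hr in control cells. The test was limma, a linear model across all genes with moderated variances, and a gene was called at a Benjamini-Hochberg adjusted p under 0.05. All levels are log2 values, and all differences are log2 differences with their standard error (SE) between groups of 3 arrays.

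The level of Cebpa checks the labels and bears on Etv5. Cebpa d/d arrays had 8.27, 8.11 and 7.83 at 0 hr, 8.30, 8.07 and 8.37 at 3 hr and 9.07, 8.55 and 7.90 at 72 hr. Control arrays had 7.89, 10.07 and 10.17 at 0 hr, 10.52, 10.30 and 10.32 at 3 hr and 9.69, 9.80 and 9.88 at 72 hr. With 7.89, the array labelled control 0 hr replicate 1 lay among the Cebpa d/d levels and went against its label. Cebpa d/d 72 hr replicate 1 had the highest Cebpa level of its genotype, and several of the 10 factors stood apart on it. Results that rest on these 2 arrays are given with and without them. Unless said otherwise, directions drawn from controls at 0 hr include that array.

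The labelled cell type was set against marker genes. As the mean log2 level of a list on an array, 12 club cell markers had 10.63 to 10.69 in Cebpa d/d and 10.37 to 10.74 in control cells at 0 hr. Those of cardiac muscle (13 genes) were at 9.71 to 10.48 in Cebpa d/d and 7.49 to 8.92 in control arrays at 0 hr, and at 7.39 to 8.24 in the other 4 groups. A reference list of 12 pan-epithelial genes, such as Epcam and Cdh1, had 8.14 to 8.29 in Cebpa d/d and 8.44 to 8.53 in control arrays at 0 hr, so these groups did not overlap. At 3 and 72 hr it had 8.45 to 8.70 in Cebpa d/d and 8.42 to 8.66 in control arrays. Ciliated cell markers (17 genes) had 8.22 to 8.45 in Cebpa d/d and 8.57 to 9.09 in control arrays at 0 hr, without overlap. All 17 differences were negative (median -0.53), with 0 called by limma and 12 at an unadjusted p under 0.05. Of all genes 0.336% were called and 8.53% had an unadjusted p under 0.05. The array labelled control 0 hr replicate 1 had 8.57 for the ciliated and 8.53 for the pan-epithelial list. Both lay outside the range of Cebpa d/d at 0 hr. Markers of cells outside the bronchiolar epithelium were also measured at levels well above the array medians of 6.48 to 6.65. Over all groups the array means were 9.65 to 10.74 for alveolar type 2 (13 genes, with Etv5 left out of the list), 9.12 to 9.82 for alveolar type 1, 8.19 to 9.03 for endothelial and 8.03 to 8.84 for fibroblast markers. In samples of many cells, fewer cells of a type and less RNA per cell cannot be told apart. Xist was high and Eif2s3y low, the female pattern, on 3 of 3 arrays in the 2 groups at 72 hr and on 1 of 3 in each earlier group. Each earlier group held arrays with and without the female pattern, so its 3 arrays cannot all come from 1 animal. Whether every replicate was a separate animal is not given, so part of the spread behind each p-value may be technical.

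The promoter windows of Etv5 and Sox2 are shown. Etv5 had the largest differences among the 10 genes, and Sox2 the single match to the C/EBP core among the windows searched. They are from RefSeq (build GRCm38.p6), from 250 bases before to 50 after a transcription start. Windows of 6 of the 10 genes were searched, 9 windows in all. Gata6, Ehf, Klf5 and Grhl2 were not searched, so their matches are not known here. Capitals mark matches on either strand to the C/EBP core TTGCNNAA, the CCAAT box CCAAT and the FOXA motif TGTTTAC, and no marked matches overlap.
Etv5, upstream start, chr16:22439521-22439820 (- strand): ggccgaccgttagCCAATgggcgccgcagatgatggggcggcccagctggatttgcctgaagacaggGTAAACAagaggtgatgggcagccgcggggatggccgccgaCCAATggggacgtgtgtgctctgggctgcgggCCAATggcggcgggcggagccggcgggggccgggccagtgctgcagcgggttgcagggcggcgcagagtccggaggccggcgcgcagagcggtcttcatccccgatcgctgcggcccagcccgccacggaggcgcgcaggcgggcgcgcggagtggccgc
Etv5, downstream start, chr16:22438319-22438618 (- strand): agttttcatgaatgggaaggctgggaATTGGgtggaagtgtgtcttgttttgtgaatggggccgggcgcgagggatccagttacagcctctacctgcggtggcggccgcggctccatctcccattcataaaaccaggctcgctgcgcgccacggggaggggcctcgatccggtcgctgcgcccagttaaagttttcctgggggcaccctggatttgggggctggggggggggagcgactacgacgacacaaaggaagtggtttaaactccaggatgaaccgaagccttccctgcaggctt
Sox2, chr3:34649745-34650044 (+ strand): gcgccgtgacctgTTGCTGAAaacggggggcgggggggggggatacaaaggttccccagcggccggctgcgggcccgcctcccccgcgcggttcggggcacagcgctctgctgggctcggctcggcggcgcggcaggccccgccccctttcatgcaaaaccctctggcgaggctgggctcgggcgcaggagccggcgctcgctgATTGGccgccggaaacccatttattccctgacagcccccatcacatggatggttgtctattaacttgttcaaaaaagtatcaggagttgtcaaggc
The upstream window of Etv5 held CCAAT at 3 places, beginning at -237, -142 and -110 from the start, and TGTTTAC at -183. Of the 32851 windows in the table, 37.4% held CCAAT and 3.37% held it at 3 or more places. The downstream window held CCAAT at -224. The Sox2 window had TTGCNNAA at -237, a motif in 10.8% of all windows, and CCAAT at -46. Among the other windows, Foxa1 had TGTTTAC at -141, which 3.65% of all windows held. These matches describe letters and not sites of binding.

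**Figure D1:**
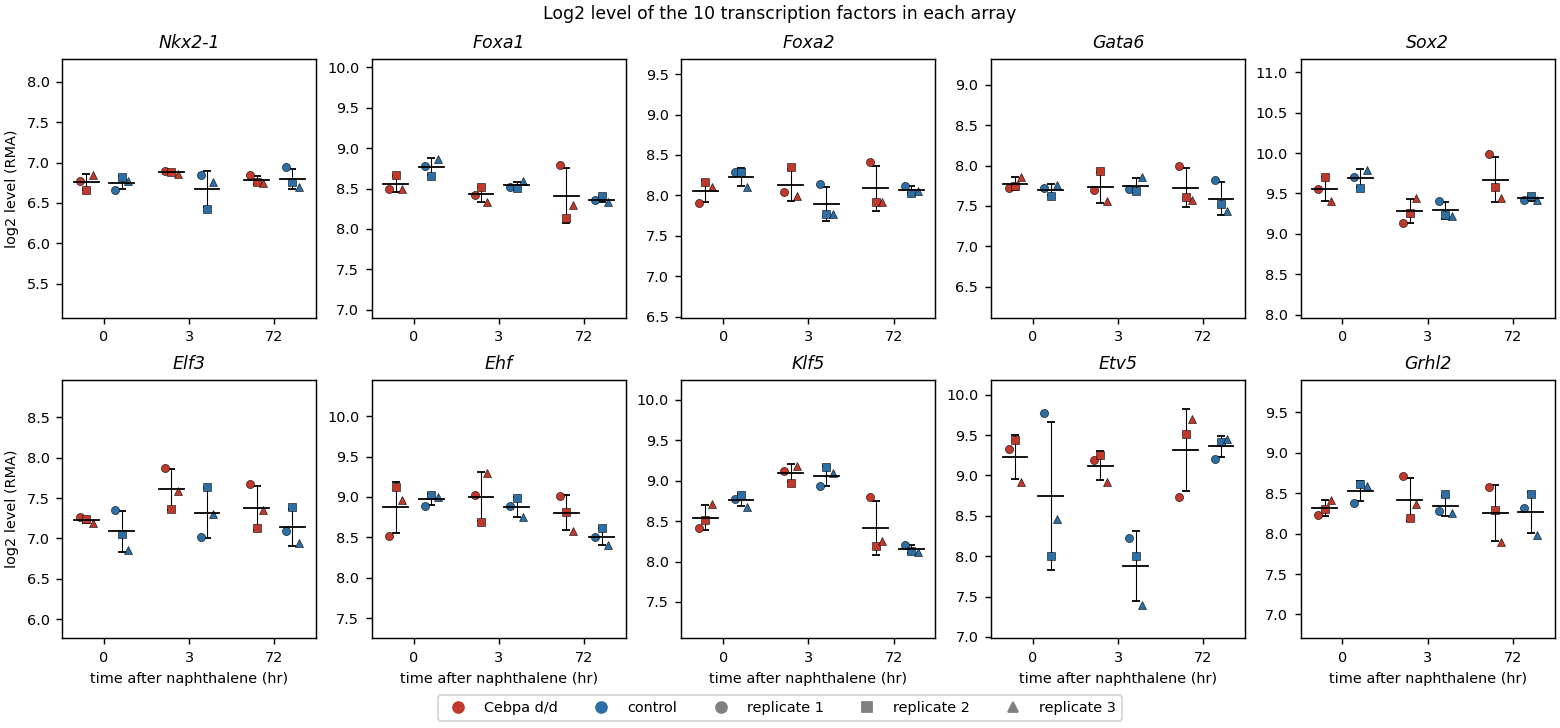
Log2 level (RMA, vertical axis) of the 10 transcription factors in each of 18 arrays, by time after naphthalene in hr (horizontal axis), with Cebpa d/d in red left of control in blue. Symbols give the replicate number, lines the group mean and bars the SD (n = 3), and each panel spans the same number of log2 units. Klf5 lies between 8.93 and 9.18 in the 6 arrays at 3 hr. The points of Nkx2-1, close to the array medians, stay between 6.42 and 6.94 in all 18 arrays.

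Nkx2-1, the lineage factor of the lung, had the narrowest range of the 10 over all arrays. Its levels of 6.42 to 6.94 lay close to the array medians of 6.48 to 6.65. The part of weak signal in the narrow range was not tested. The alternative without genes below the median level removed this gene. Its group means lay between 6.67 and 6.88, and no 2 groups that neighbour each other in the order of means were free of overlap. In Cebpa d/d cells the 3 hr arrays lay above those at 0 hr and at 72 hr, as for 10.7% and 13% of all genes. At 3 hr the Cebpa d/d arrays had 6.90, 6.88 and 6.86, against 6.84, 6.42 and 6.75 in control arrays. All 3 Cebpa d/d arrays lay above the control arrays, as did those of Etv5, 2 of the 10 factors against 3.74% of all genes, and the difference of 0.20 ± 0.10 did not pass (adjusted p = 0.984). In the mean over the times the genotypes differed by 0.07, with a 95% interval of -0.06 to 0.19.

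Foxa1 and Foxa2 are forkhead factors that open chromatin at lung genes. Foxa1 in Cebpa d/d arrays had 8.49, 8.67 and 8.50 at 0 hr, 8.42, 8.52 and 8.34 at 3 hr and 8.80, 8.14 and 8.30 at 72 hr. Control arrays had 8.78, 8.66 and 8.87 at 0 hr, 8.52, 8.51 and 8.59 at 3 hr and 8.36, 8.40 and 8.33 at 72 hr. In control cells every array at 72 hr lay below every array at 3 hr, and these below every array at 0 hr. Of all genes, 23.3% were lower without overlap from 3 to 72 hr, 8.98% from 0 to 3 hr and 12.4% from 0 to 72 hr. The Foxa1 change from 0 to 72 hr of -0.41 ± 0.13 did not pass in control cells (adjusted p = 0.0617). It passed in 7 of 28 alternatives, among them without Cebpa d/d 72 hr replicate 1 (adjusted p = 0.00733), an array that enters this comparison only through the shared spread and that had the highest Foxa1 level of its group. In Cebpa d/d cells the same change was -0.14 ± 0.13 (adjusted p = 0.63) with all arrays and -0.34 (adjusted p = 0.0482) without that array. Foxa2 ranged from 7.76 to 8.41 over all arrays. Its lowest mean was 7.89 in control cells at 3 hr, -0.34 ± 0.14 relative to control cells at 0 hr (adjusted p = 0.181).

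Gata6, a zinc finger factor of lung and heart development, had group means from 7.59 to 7.78. Its genotype difference at 0 hr, where cardiac muscle markers were high in Cebpa d/d arrays, was 0.08 ± 0.13 (adjusted p = 0.925). In that comparison 11 of 13 cardiac markers did not overlap between the groups, all higher in Cebpa d/d, against 5.88% of all genes that were higher without overlap. The part of heart tissue in the level of Gata6 was not tested.

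Sox2, which sets airway identity, had 9.55, 9.70 and 9.40 at 0 hr, 9.14, 9.26 and 9.44 at 3 hr and 9.99, 9.58 and 9.44 at 72 hr in Cebpa d/d arrays. In control arrays it had 9.70, 9.57 and 9.79 at 0 hr, 9.41, 9.23 and 9.23 at 3 hr and 9.42, 9.47 and 9.41 at 72 hr. The 3 hr means of 9.28 in Cebpa d/d and 9.29 in control cells were the lowest. The change from 0 to 3 hr was -0.27 ± 0.13 in Cebpa d/d (adjusted p = 0.275) and -0.40 ± 0.13 in control cells (adjusted p = 0.0853), and neither passed. The arrays at 0 and 3 hr did not overlap in control cells, as was so for 3 of the 10 factors (Foxa1, Sox2 and Klf5) and 20.3% of all genes. In that comparison 0 of 10 factors were called by limma and 4 of 10 had an unadjusted p under 0.05, against 21% of all genes. From 3 to 72 hr Sox2 differed by 0.39 ± 0.13 in Cebpa d/d (adjusted p = 0.0649), and 9.99 in Cebpa d/d 72 hr replicate 1 was the highest level of all arrays.

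Elf3 and Ehf are ETS factors of epithelial cells. Elf3 had its highest mean, 7.61 ± 0.25 (SD, n = 3), in Cebpa d/d cells at 3 hr. Its lowest, 7.09 ± 0.25 (SD, n = 3), was in control cells at 0 hr. All groups that neighbour each other in order overlapped. The groups at the ends of the order did not, with 7.37 to 7.87 and 6.86 to 7.35. The Elf3 change from 0 to 3 hr was 0.37 in Cebpa d/d (adjusted p = 0.297) and 0.23 in control cells (adjusted p = 0.481). In Cebpa d/d the arrays of these times did not overlap, as for 3 of the 10 factors that were higher and 10.7% of all genes. Ehf in Cebpa d/d arrays had 8.52, 9.13 and 8.96 at 0 hr, 9.03, 8.69 and 9.30 at 3 hr and 9.02, 8.82 and 8.58 at 72 hr. Control arrays had 8.89, 9.02 and 8.99 at 0 hr, 8.89, 8.99 and 8.75 at 3 hr and 8.50, 8.62 and 8.40 at 72 hr. In control cells the 72 hr arrays lay below all others, and the difference from 0 hr was -0.46 ± 0.16 (adjusted p = 0.0921). Of all genes, 12.4% were lower without overlap at 72 hr than at 0 hr, and 23.3% than at 3 hr. The times overlapped in Cebpa d/d cells, with a difference of -0.06 ± 0.16 (adjusted p = 0.894).

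Klf5, a Kruppel-like factor with a part in epithelial repair, passed the test in 4 comparisons between times. In Cebpa d/d arrays it had 8.41, 8.51 and 8.71 at 0 hr, 9.13, 8.97 and 9.18 at 3 hr and 8.79, 8.19 and 8.25 at 72 hr. In control arrays it had 8.78, 8.82 and 8.68 at 0 hr, 8.93, 9.17 and 9.09 at 3 hr and 8.21, 8.14 and 8.11 at 72 hr. All 6 arrays at 3 hr lay above all 12 others. In control cells the 3 times did not overlap at all. Of all genes there, 11.3% were higher without overlap from 0 to 3 hr. A further count gave 23.3% lower from 3 to 72 hr and 12.4% lower from 0 to 72 hr. The share with all 3 times apart was not counted. In Cebpa d/d cells 72 hr replicate 1 lay above the 0 hr arrays while the other 2 lay below them.

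From 3 to 72 hr Klf5 fell in both genotypes, by a log2 difference of -0.68 ± 0.13 in Cebpa d/d (adjusted p = 0.00431) and -0.91 ± 0.13 in control cells (adjusted p = 0.000227). The test called 8.55% of all genes in that comparison in Cebpa d/d and 19.7% in control cells. Both calls held in all 28 alternatives, with differences of -0.87 to -0.57 in Cebpa d/d and -0.98 to -0.85 in control cells. Without Cebpa d/d 72 hr replicate 1 the Cebpa d/d difference was -0.87 (adjusted p = 8.52e-05). From 0 to 3 hr Klf5 rose in Cebpa d/d by 0.55 ± 0.13 (adjusted p = 0.024), where 4.38% of all genes were called. In control cells the difference was 0.31 ± 0.13 (adjusted p = 0.195), with 3.5% of all genes called, and arrays that did not overlap. The call in Cebpa d/d was lost without any 1 of Cebpa d/d 0 hr replicates 1 and 2 and Cebpa d/d 3 hr replicates 1 and 3 (adjusted p = 0.102, 0.0866, 0.0904 and 0.113). It was also lost when arrays were centred on the pan-epithelial genes, which left 0.22 (adjusted p = 0.138) and put the median of all genes at -0.34.

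At 72 hr Klf5 was below its starting level in control cells by -0.61 ± 0.13 (adjusted p = 0.0101), where 7.15% of all genes were called. It was at -0.60 (adjusted p = 0.0268) with the array labelled control 0 hr replicate 1 left out and at -0.55 (adjusted p = 0.0512) with sex as a covariate. In Cebpa d/d cells the difference was -0.13 ± 0.13 (adjusted p = 0.681), with 4.8% of all genes called by limma and 17.5% at an unadjusted p under 0.05 (0 of the 10 factors by either), and -0.32 (adjusted p = 0.0941) without both doubted arrays. The test of the difference between the genotypes in this change gave 0.47 ± 0.19 (adjusted p = 0.995), so a difference between the genotypes was not shown. Between the genotypes at 72 hr Klf5 differed by 0.26, with a 95% interval of -0.02 to 0.54.

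**Figure D2:**
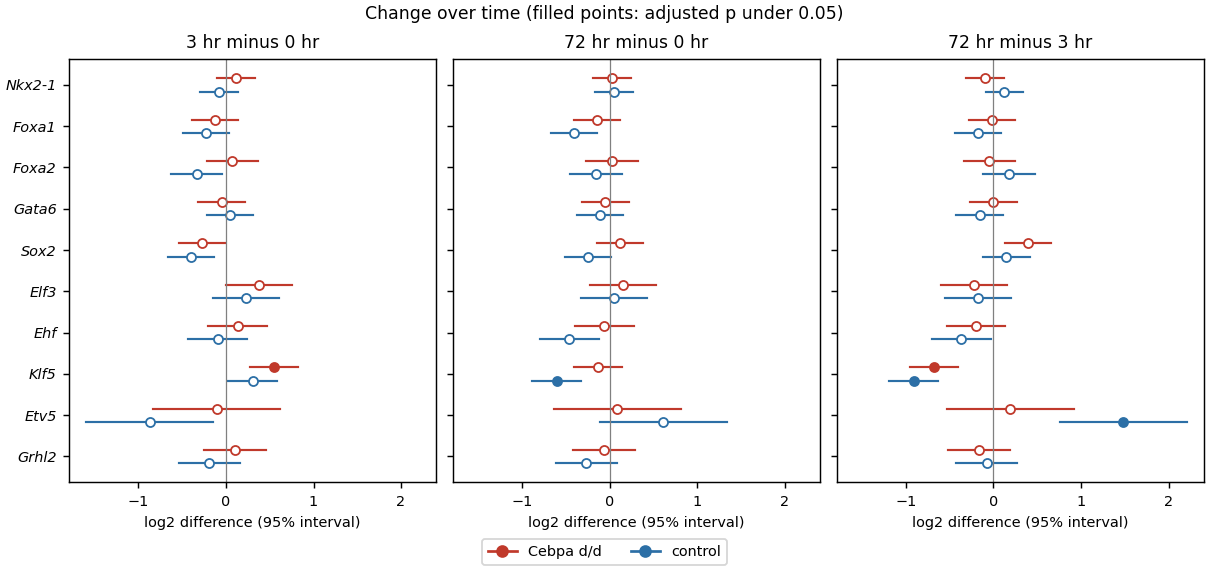
Log2 difference between times (horizontal axis, 95% interval) for each factor (vertical axis), in Cebpa d/d (red, upper) and control (blue, lower) cells, from limma on groups of 3 arrays. Filled points mark an adjusted p under 0.05: Klf5 in 4 comparisons and Etv5 at 1.48 from 3 to 72 hr in control cells.

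Etv5, the FGF-responsive ETS factor, varied most. Cebpa d/d arrays had 9.33, 9.44 and 8.91 at 0 hr, 9.19, 9.25 and 8.92 at 3 hr and 8.73, 9.51 and 9.69 at 72 hr. Control arrays had 9.77, 8.01 and 8.46 at 0 hr, 8.23, 8.001 and 7.39 at 3 hr and 9.20, 9.42 and 9.45 at 72 hr. In control cells every array at 72 hr lay above every array at 3 hr, as was so for 17.1% of all genes. The Etv5 change of 1.48 ± 0.34 passed (adjusted p = 0.00701). It corresponds to a 2.79-fold higher level and passed in all 28 alternatives, with differences of 1.14 to 1.66 and an adjusted p of at most 0.0426. Markers of other cells moved over the same time in control cells, with 13 of 17 ciliated, 4 of 13 alveolar type 2 (Etv5 left out), 6 of 11 fibroblast and 6 of 11 macrophage markers higher by limma, against 19.7% of all genes called in either direction. The array means of the alveolar type 2 markers were 10.28 to 10.74 at 72 hr and 9.99 to 10.13 at 3 hr in control cells. Those of the fibroblast markers were 8.66 to 8.84 at 72 hr and 8.03 to 8.23 at 3 hr. Their part in the changes of Etv5 and Klf5 was not tested. The same change in Etv5 was 0.19 ± 0.34 in Cebpa d/d cells (adjusted p = 0.838). The difference between the genotypes in this change was not tested.

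The highest Etv5 level of all arrays, 9.77, was on the array labelled control 0 hr replicate 1, the control array with the low Cebpa level. The lowest among Cebpa d/d arrays, 8.73, was on Cebpa d/d 72 hr replicate 1, the array of that genotype with the highest Cebpa level. With all arrays Etv5 differed between the genotypes by 0.48 ± 0.34 at 0 hr (adjusted p = 0.76), 1.24 ± 0.34 at 3 hr (adjusted p = 0.685) and -0.05 ± 0.34 at 72 hr (adjusted p = 0.994), none of which passed. Of all genes 0.336%, 0.015% and 0.0702% were called at 0, 3 and 72 hr. At an unadjusted p under 0.05, limma gave 0, 1 and 0 of the 10 factors, against 8.53%, 5.02% and 6.31% of all genes, and for the mean over the times 2 of 10 (Etv5 and Elf3), against 8.57%. At 3 hr the 3 Cebpa d/d arrays lay above all 3 control arrays, while the alveolar type 2 marker means, again without Etv5, were 9.65 to 9.73 in Cebpa d/d and 9.99 to 10.13 in control arrays. Gene by gene, 7 of these 13 markers were higher in Cebpa d/d, with a median difference of 0.01 and 0 called by limma. The lowest difference in the list was -2.53, so the lower mean does not describe the markers as a group. With Etv5 counted, 9 of 14 had an unadjusted p under 0.05 in limma at 3 hr, against 5.02% of all genes. Of the 14, 5 were higher and 5 lower without overlap, against 3.74% and 6.05% of all genes. For the mean over the times, 4 of the 13 were called lower by limma, against 0.171% of all genes.

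Without both doubted arrays, a setting chosen after the values were seen, Etv5 was higher in Cebpa d/d by 0.99 ± 0.22 at 0 hr (adjusted p = 0.0415) and by 1.24 ± 0.19 at 3 hr (adjusted p = 0.0139). It then differed by 0.24 ± 0.22 at 72 hr (adjusted p = 0.999). Neither array enters the 3 hr comparison. Its estimate stayed at 1.24, and its SE went from 0.34 to 0.19 only through the shared spread. The arrays left out held the highest Etv5 level of all and the lowest of Cebpa d/d. The 3 hr call in this setting is therefore no separate support for a genotype difference. In that setting 1.01%, 0.1% and 0.115% of all genes were called at the 3 times. Leaving out either array alone gave no call at a single time. For the mean over the 3 times, the difference was 0.56 ± 0.20 with all arrays (adjusted p = 0.362), 0.73 with the array labelled control 0 hr replicate 1 left out (adjusted p = 0.0227) and 0.83 ± 0.12 without both (adjusted p = 0.00299). Over all genes 0.306% were called for this mean with all arrays, and 1.14% without both. The interaction, the genotype difference at 72 hr less that at 0 hr, was -0.53 ± 0.49 with all arrays (adjusted p = 1) and -0.75 ± 0.31 without both (adjusted p = 0.969), so no difference between the times was shown.

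**Figure D3:**
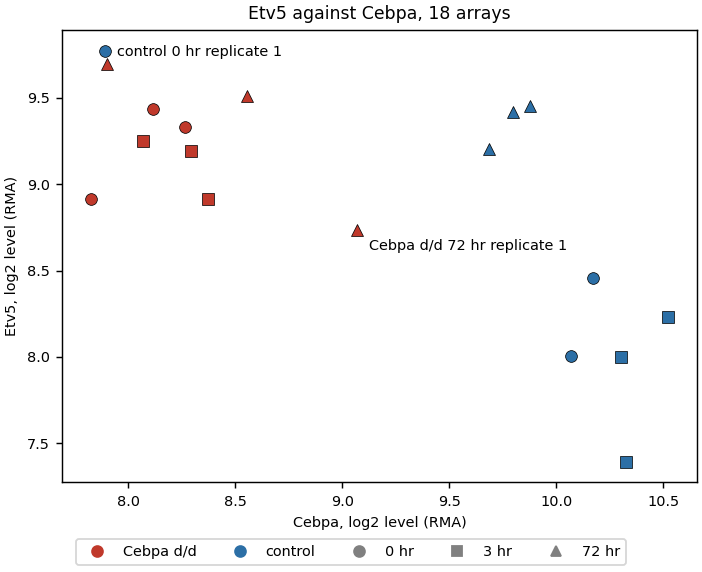
Log2 level of Etv5 (vertical axis) against that of Cebpa (horizontal axis) in each of 18 arrays, with Cebpa d/d in red and control in blue and the time as the symbol. The array labelled control 0 hr replicate 1 lies among the Cebpa d/d arrays in Cebpa, with 7.89. Its Etv5 level of 9.77 lies above all of them, while the control arrays at 72 hr have high levels of both genes.

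Grhl2, which holds up epithelial junction genes, had group means from 8.26 to 8.53. Its differences between the genotypes were -0.21 ± 0.17 at 0 hr (adjusted p = 0.796), 0.08 at 3 hr (adjusted p = 0.99) and -0.01 at 72 hr (adjusted p = 0.998). No neighbours in the order of its 6 means were free of overlap.

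**Figure D4:**
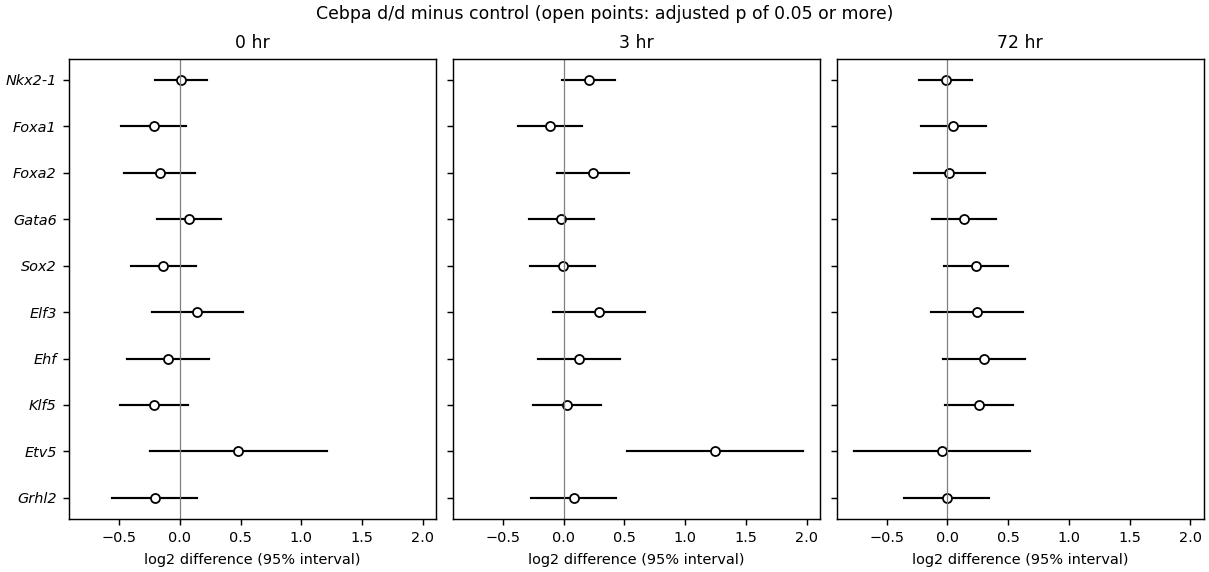
Log2 difference of Cebpa d/d minus control (horizontal axis, 95% interval) for each factor (vertical axis) at 0, 3 and 72 hr, from limma on groups of 3 arrays. All points are open, which marks an adjusted p of 0.05 or more, and the interval of Etv5 at 3 hr, 0.52 to 1.97, is the one that lies clear of 0.

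Over the 10 factors, the genotypes differed by a median of -0.12, 0.11 and 0.09 at 0, 3 and 72 hr, beside medians over all genes of 0.02, -0.02 and 0.02. The change from 0 to 72 hr had a median of -0.01 in Cebpa d/d and -0.20 in control cells, beside -0.02 in both over all genes. Without both doubted arrays, the Cebpa d/d changes were -0.34 (Foxa1), -0.32 (Klf5), -0.23 (Grhl2), -0.185 (Gata6) and -0.17 (Ehf). They were -0.135 for Foxa2, -0.04 for Sox2, -0.005 for Nkx2-1, 0.005 for Elf3 and 0.375 for Etv5. The control changes, in the same order, were -0.40, -0.595, -0.34, -0.10 and -0.50, then -0.125, -0.24, 0.001, 0.185 and 1.126. In control cells 4 of the 10, namely Foxa1, Sox2, Ehf and Klf5, were lower at 72 hr than at 0 hr with no overlap, against 12.4% of all genes. This was so for 0 of 10 in Cebpa d/d cells, against 11.3%. With Cebpa d/d 72 hr replicate 1 left out, Foxa1, Gata6 and Klf5 lay below all Cebpa d/d arrays at 0 hr. Their other 72 hr arrays had 8.14 and 8.30, 7.61 and 7.57, and 8.19 and 8.25. The lowest levels at 0 hr were 8.49, 7.72 and 8.41 in that order. The share of all genes without overlap was not counted there. The 11.3% above does not stand for it, since fewer arrays separate more easily. The changes in Cebpa d/d and control cells share no array. Of the 10 interactions 0 passed, with 0.0953% of all genes called for the 72 hr interaction and 0% for that at 3 hr. At an unadjusted p under 0.05, limma gave 1 of 10 and 0 of 10 interactions, against 4.47% and 6.85% of all genes. Club cell markers moved in the same time course: their mean log2 level at 72 hr was 9.58 to 10.51 in Cebpa d/d and 9.67 to 9.87 in control arrays. The value of 10.51 was on Cebpa d/d 72 hr replicate 1. The part of club cell loss in the levels of the factors was not tested.

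Over the 18 arrays the 45 pairs of factors correlated at -0.61 to 0.68 (Pearson's r, a description of arrays that share groups). The highest was that of Ehf with Klf5 and the lowest that of Klf5 with Etv5. Among 19937 other genes, those most like Klf5 in level over the arrays were Smg1, Cep70 and Slc25a37 (r = 0.94 each). For Etv5 they were Mamdc2 (0.93), Abca8b (0.91) and Pik3r3 (0.89), and for Foxa1 they were Grb7, Muc20 and Irf2 (0.88 each). The closest gene to Grhl2 was the membrane protease gene Prss8 (0.78), that to Sox2 was Taf6 (0.85) and that to Ehf was Sp4 (0.87). The closest to Foxa2 was Wdr41 (0.85), to Elf3 Utp11 (0.81), to Gata6 Rundc3a (0.80) and to Nkx2-1 4930558K02Rik (0.76).

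Other transcription factors of the lung epithelium were followed as a list of 38 measured genes. From 3 to 72 hr in control cells 5 rose and 9 fell, with a median of -0.17 beside -0.07 over all genes, of which 19.7% were called. Among them the epithelial repressor Ovol1 fell by -0.74 ± 0.10 (adjusted p = 0.00019), Grhl3, a relative of Grhl2, by -0.47 ± 0.09 (adjusted p = 0.00138) and the mucous cell factor Spdef by -0.48 ± 0.10 (adjusted p = 0.0045). Nfib, a factor of lung maturation, rose by 0.56 ± 0.10 (adjusted p = 0.00151). Of the 38, 0 rose and 5 fell in Cebpa d/d cells, where 8.55% of all genes were called, with Ovol1 at -0.60 ± 0.10 (adjusted p = 0.00188), the Kruppel-like factor gene Klf6 at -0.81 ± 0.14 (adjusted p = 0.00224) and Grhl1 at -0.90 ± 0.21 (adjusted p = 0.0135). From 0 to 3 hr Ovol1 rose by 0.60 in Cebpa d/d (adjusted p = 0.00256) and 0.53 in control cells (adjusted p = 0.0109). Klf6 rose by 0.69 in Cebpa d/d (adjusted p = 0.0103) and 0.77 in control cells (adjusted p = 0.00901). Between the genotypes 0 of 38 genes passed by limma at each single time, and 5, 3 and 5 had an unadjusted p under 0.05 at 0, 3 and 72 hr. Of all genes 0.336%, 0.015% and 0.0702% passed, and 8.53%, 5.02% and 6.31% had an unadjusted p under 0.05. At 0 hr 4 of the 38 were higher in Cebpa d/d with pan-epithelial centring, which put the median of all genes at 0.29. The share of all genes called with that centring was not counted. For the mean over the times 1 of the 38 passed, against 0.306% of all genes: Cebpa itself (-1.58 ± 0.24, adjusted p = 0.00953).

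Surfactant and secretory genes that NKX2-1 is known to act on were a list of 17. From 3 to 72 hr 2 rose and 1 fell in Cebpa d/d, and 6 rose and 1 fell in control cells, where 8.55% of all genes were called in Cebpa d/d and 19.7% in control cells. The rising genes in Cebpa d/d were Cldn18 (0.89 ± 0.25, adjusted p = 0.0406) and Sftpd (0.35 ± 0.11, adjusted p = 0.0497), and 0 rose there with arrays centred on their median or on the pan-epithelial genes. Without both doubted arrays 9 rose in control cells, where 21.9% of all genes were called in either direction. In control cells the rising genes included the surfactant protein gene Sftpb (0.70 ± 0.11, adjusted p = 0.00042) and the phosphate transporter gene Slc34a2 (1.09 ± 0.22, adjusted p = 0.00311). The fall was in Cyp2f2, the P450 of club cells that activates naphthalene, by -0.45 ± 0.12 in Cebpa d/d (adjusted p = 0.0325) and -0.62 ± 0.12 in control cells (adjusted p = 0.00259). Nkx2-1 itself differed over that interval by -0.09 in Cebpa d/d (adjusted p = 0.691) and 0.12 in control cells (adjusted p = 0.387). Between the genotypes 0 of 17 passed by limma at each single time. At an unadjusted p under 0.05 there were 2, 6 and 2 at 0, 3 and 72 hr, against 8.53%, 5.02% and 6.31% of all genes. For the mean over the times 1 passed, against 0.306% of all genes: Abca3, lower in Cebpa d/d (-0.37 ± 0.06, adjusted p = 0.00999).

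Junction and splicing genes linked to GRHL2 were a list of 22. From 0 to 3 hr 3 rose in Cebpa d/d, the tight junction gene Cldn7 (0.86 ± 0.15, adjusted p = 0.00231), Epcam (0.48 ± 0.10, adjusted p = 0.0088) and the E-cadherin gene Cdh1 (0.38 ± 0.10, adjusted p = 0.0411). Over the same time 2 rose in control cells, the claudin gene Cldn4 (0.61 ± 0.13, adjusted p = 0.0198) and the polarity gene Crb3 (0.46 ± 0.10, adjusted p = 0.0219). The share of all genes called was 4.38% in Cebpa d/d and 3.5% in control cells from 0 to 3 hr, and 4.8% in Cebpa d/d and 7.15% in control cells from 0 to 72 hr. From 0 to 72 hr 4 rose in Cebpa d/d, among them the protease gene Tmprss2 (0.92 ± 0.10, adjusted p = 6.1e-05) and Rab25 (0.64 ± 0.11, adjusted p = 0.00244). In control cells 1 rose over that time, Tmprss2 (0.88 ± 0.10, adjusted p = 0.000174). The median of the list from 0 to 72 hr was 0.24 in Cebpa d/d and 0.05 in control cells, and the sign of both turned with arrays centred on the pan-epithelial genes (-0.12 in Cebpa d/d and -0.003 in control cells). That centring left 2 that rose and 3 that fell from 0 to 72 hr in Cebpa d/d. Of the 12 pan-epithelial genes 11 are also in this list of 22, so that centring removes much of the change of the list by construction. The starting group of the Cebpa d/d changes is the one with high cardiac and low pan-epithelial levels, whose part in them was not tested. Between the genotypes 0 of 22 passed by limma at each single time or in the mean over the times. At an unadjusted p under 0.05 there were 8, 1 and 2 at 0, 3 and 72 hr, against 8.53%, 5.02% and 6.31% of all genes. At 0 hr 18 of the 22 differences were negative, with a median of -0.185 beside 0.02 over all genes.

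Genes of the FGF and ERK pathway around ETV5 were a list of 23. The related ETS gene Etv1 rose from 3 to 72 hr in control cells (0.87 ± 0.18, adjusted p = 0.0031), 1 of 23 that rose there with 0 that fell, a share below the 19.7% of all genes called. Over the same time 1 rose and 2 fell in Cebpa d/d, where 8.55% of all genes were called: the growth factor gene Fgf10 rose (0.57 ± 0.16, adjusted p = 0.0387), while the ERK phosphatase gene Dusp4 (-0.77 ± 0.12, adjusted p = 0.000744) and the feedback inhibitor gene Spry2 (-0.42 ± 0.10, adjusted p = 0.0185) fell. The call of Fgf10 was lost without both doubted arrays and with arrays centred on their median or on the pan-epithelial genes. Without both arrays, 3 rose from 3 to 72 hr in control cells, where 21.9% of all genes were called in either direction. From 0 to 72 hr in control cells the ERK phosphatase gene Dusp6 rose by 0.88 ± 0.25 (adjusted p = 0.0397) and Spry2 fell by -0.40 ± 0.10 (adjusted p = 0.0273). Between the genotypes 0 of 23 passed by limma at any single time, and 2, 2 and 1 had an unadjusted p under 0.05 at 0, 3 and 72 hr. Of all genes 0.336%, 0.015% and 0.0702% passed, and 8.53%, 5.02% and 6.31% had an unadjusted p under 0.05.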

How the data were processed

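Total RNA of 18 samples was measured on Affymetrix arrays. The authors deposited 1 log2 value per probe set and array, and the submitters' processing notes name RMA; its version, filters and genome build are not given in the sources used here. The values ran from 2.53 to 13.93, with array medians of 6.48 to 6.65; precision is limited by there being 3 arrays a group. Of 35557 probe sets, 21789 had 1 symbol, 1621 several and 12147 none in the platform annotation. Those with 1 symbol were kept, and per gene the probe set with the highest mean. Arrays were grouped by their labels. A model of 6 group means was fitted to all 18 arrays in R 4.3.3 with limma 3.58.1 (12 residual and 4.49 prior degrees of freedom), with Benjamini-Hochberg adjustment over 19938 genes in each of 12 contrasts, and was tested on simulated data. Members and lists were chosen with earlier results of these data known. The 10 members were named in all contrasts, up to 4 passing genes per list and contrast, and the 3 genes most like each member. Alternatives changed the filter, probe sets, variance model, array weights, replicate block, groups fitted, scaling and sex term, or left out arrays. Arrays with the same replicate number in different groups deviated together at a median correlation of -0.04, so the numbers were not taken to pair samples.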

Additional observations from a re-analysis of the deposited data

Results flagged for a closer look

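The second Etv5 probe set, which the comparisons do not use, had 7.65, 7.73 and 7.36 in Cebpa d/d arrays at 3 hr and 7.25, 7.04 and 6.93 in control arrays at 3 hr. The Cebpa d/d arrays lay above all control arrays, with a difference of means of 0.51 that was not tested. Over the 18 arrays it correlated with the probe set used at 0.94 (Pearson's r).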

How the results depend on the processing

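Of 336 recomputed counts of factors called, 312 stayed within 1.5 times of the count with all arrays. With the replicate block, which changed no count of factors called, the Klf5 changes in Cebpa d/d had adjusted p = 0.04 (0 to 3 hr) and 0.00901 (3 to 72 hr). For 72 hr minus 0 hr in control cells the count of 1 became 2 without genes below the median level, 4 with array weights, 3 with only the groups of the contrast, 3 with arrays centred on the pan-epithelial mean, 0 with sex as a covariate and 3 without both doubted arrays. Without both, 8.4% of all genes were called in that comparison. For the other settings the share of all genes called was not counted. For the same change in Cebpa d/d the count of 0 became 5 with pan-epithelial centring, and for 3 hr minus 0 hr in Cebpa d/d the count of 1 became 3. That centring moved the median of all genes by -0.37 and -0.34 in these 2 comparisons, which the falls of the factors include. For the mean genotype difference the count of 0 became 1 with array weights and 1 without both doubted arrays, and without both it was also 1 at 0 hr and 1 at 3 hr (Etv5 each time). For 72 hr minus 3 hr in Cebpa d/d the count of 1 became 2 without genes below the median level. Leaving out 1 array gave counts of 0 to 1 for the mean genotype difference, for 3 hr minus 0 hr in both genotypes and for 72 hr minus 0 hr in Cebpa d/d. It gave 1 to 2 for 72 hr minus 0 hr in control and for 72 hr minus 3 hr in Cebpa d/d. Signs turned in changes that did not pass: in Cebpa d/d without 1 array, Gata6 ranged from -0.148 to 0.039 (3 hr minus 0 hr) and from -0.185 to 0.028 (72 hr minus 0 hr), Grhl2 from -0.226 to 0.116 and Ehf from -0.238 to 0.065 (both 72 hr minus 0 hr), and Ehf was 0.066 with sex as a covariate. The causes were not tested. Of 99 other pairs of factor and comparison, with 0 called in any alternative, 53 changed sign in at least 1.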
